A study of Homo sapiens with 6 samples.

Results

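The exon junction complex (EJC) core genes EIF4A3, MAGOH, MAGOHB, RBM8A and CASC3 were taken from an RNA-seq table by symbol, as the rows whose gene name holds one of them. All 5 genes had a row among 27918 genes and loci. HCT-116, an established human colorectal carcinoma cell line, was transfected with a GapmeR against the long noncoding RNA CASC9 (GapC9) or with a control GapmeR (GapNC). A GapmeR is an antisense oligonucleotide with a DNA center that directs RNase H to cut its target RNA. Poly(A) RNA of 3 libraries per group was sequenced as read pairs, and the table gives fragments per kilobase and per mega (M) of mapped fragments (FPKM), a unit per transcript length. The labels do not say whether libraries came from separate cultures, so p-values measure only the spread between these samples. The comparison asks which of the 5 genes differed in level between libraries labelled GapC9 and libraries labelled GapNC.

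The spliceosome deposits the EJC on mRNA upstream of exon-exon junctions. EIF4A3, a DEAD-box RNA helicase of the eIF4A family, clamps the RNA, and the heterodimer of MAGOH (or its paralog MAGOHB) and RBM8A, also called Y14, holds the clamp closed. CASC3, also called MLN51 or Barentsz, binds EIF4A3 and RNA. The complex marks where introns were removed, takes part in mRNA export, localization and translation, and can lead to nonsense-mediated decay (NMD) when it lies downstream of a stop codon. CASC3 and CASC9 share a naming series but are unrelated genes.

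In GENCODE v29 (GRCh38), EIF4A3 (ENSG00000141543) lies at chr17:80135214-80147183 on the minus strand and CASC3 (ENSG00000108349) at chr17:40140318-40172183 on the plus strand. MAGOH (ENSG00000162385) lies at chr1:53226892-53238610, RBM8A (ENSG00000265241) at chr1:145917714-145927678 and MAGOHB (ENSG00000111196) at chr12:10604190-10613623, each on the minus strand. All are annotated as protein coding. The table has RBM8A in a row joined with another gene, so the value called RBM8A below belongs to that joined row. RBM8A also overlaps GNRHR2 by 6329 bases on the opposite strand, and the use of strand in the counting is not given in the sources used here.

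MAGOH and MAGOHB are paralogs, and their coding sequences show how much there is to tell their fragments apart. Of 438 aligned coding bases, 380 (86.8%) were identical, and the longest identical run was 38 bases. Coding bases 1 to 144 of MAGOH and 1 to 150 of MAGOHB are printed below, with bases that differ or have no partner in capitals.
MAGOH: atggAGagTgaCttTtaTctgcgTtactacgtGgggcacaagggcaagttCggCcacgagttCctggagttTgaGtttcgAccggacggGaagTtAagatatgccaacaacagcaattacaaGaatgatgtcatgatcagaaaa
MAGOHB: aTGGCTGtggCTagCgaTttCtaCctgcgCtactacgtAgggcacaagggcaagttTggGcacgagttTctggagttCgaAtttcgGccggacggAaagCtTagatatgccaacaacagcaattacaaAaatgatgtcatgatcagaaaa

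EIF4A3 is further from its paralogs EIF4A1 and EIF4A2, the helicases of translation initiation. Its coding sequence shared 66.9% of aligned bases with EIF4A2, with a longest identical run of 17, and 65.8% with EIF4A1, with a longest run of 14. The stretch around the DEAD-box codons (gatgaagctgat, bases 559 to 570 of the EIF4A3 coding sequence) shows this distance, with differing bases in capitals, from base 520 to 609 of EIF4A3 and 508 to 597 of EIF4A2.
EIF4A3: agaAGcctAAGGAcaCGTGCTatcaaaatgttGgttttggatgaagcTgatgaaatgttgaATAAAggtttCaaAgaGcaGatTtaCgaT
EIF4A2: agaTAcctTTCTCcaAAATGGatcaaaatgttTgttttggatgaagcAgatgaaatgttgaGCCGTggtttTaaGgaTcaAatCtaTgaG

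Read as 1 fragment, the step seen most often among low FPKM values put the libraries at about 22.9 to 24.2 M fragments. Library 1 of GapNC stood apart. Across 10117 genes and loci, the deviation of log2 FPKM from the mean of all libraries had a Spearman correlation with GC content of 0.618 in that library. The correlation was 0.0130 and −0.101 in GapNC libraries 2 and 3. It was 0.0215, −0.339 and −0.384 in GapC9 libraries 1, 2 and 3, so GC content also differed in part with the label. Values of the 5 genes are also given without GapNC library 1. GapC9 libraries 2 and 3, with the lowest correlations, stay in those fits. CASC9, the targeted RNA, was below the 0.1 FPKM filter. Its values were 0, 0.0108 and 0 FPKM under the GapNC label, against 0.0528, 0.107 and 0 FPKM under the GapC9 label. It was thus not lower under the knockdown label, but at levels this low the table does not check that label, and each direction below is between labels only. The epithelial genes EPCAM (62.3 to 88.4 FPKM) and KRT8 (316 to 480 FPKM) were high in all libraries, CDX2 was at 1.59 to 3.79 FPKM, and VIL1, another intestinal epithelial marker, was at or near 0. Markers of other cell types (PTPRC, CD3E, PECAM1, COL1A1, COL3A1 and ALB) summed to 4.13 to 5.72 FPKM, nearly all from the collagens, and the other 4 were at or near 0.

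The main question was whether any core gene differed between the labels. None of the 5 passed an adjusted p under 0.05 in limma, against 6.99% of all 16028 rows tested. None passed the study's thresholds either, a mean FPKM that differed 2-fold (ratio 2 or more, or 0.5 or less) with an unadjusted p under 0.05, against 6.42% of all rows. MAGOH came closest, 1.32-fold higher in libraries labelled GapC9 (limma adjusted p = 0.0512). EIF4A2, the paralog of EIF4A3, passed the adjusted threshold (limma adjusted p = 0.0193). With a 1.73-fold higher mean, it did not pass the study's thresholds. At an unadjusted p under 0.05, 2 of the 5 were past the threshold, MAGOH and RBM8A, against 25.9% of all rows. In the same 2, every library labelled GapC9 was above every library labelled GapNC, which held for 12.6% of all rows in that direction and for 34.2% in either direction. The median log2 fold change of the 5 was 0.18, against −0.076 over all rows.

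**Figure D1:**
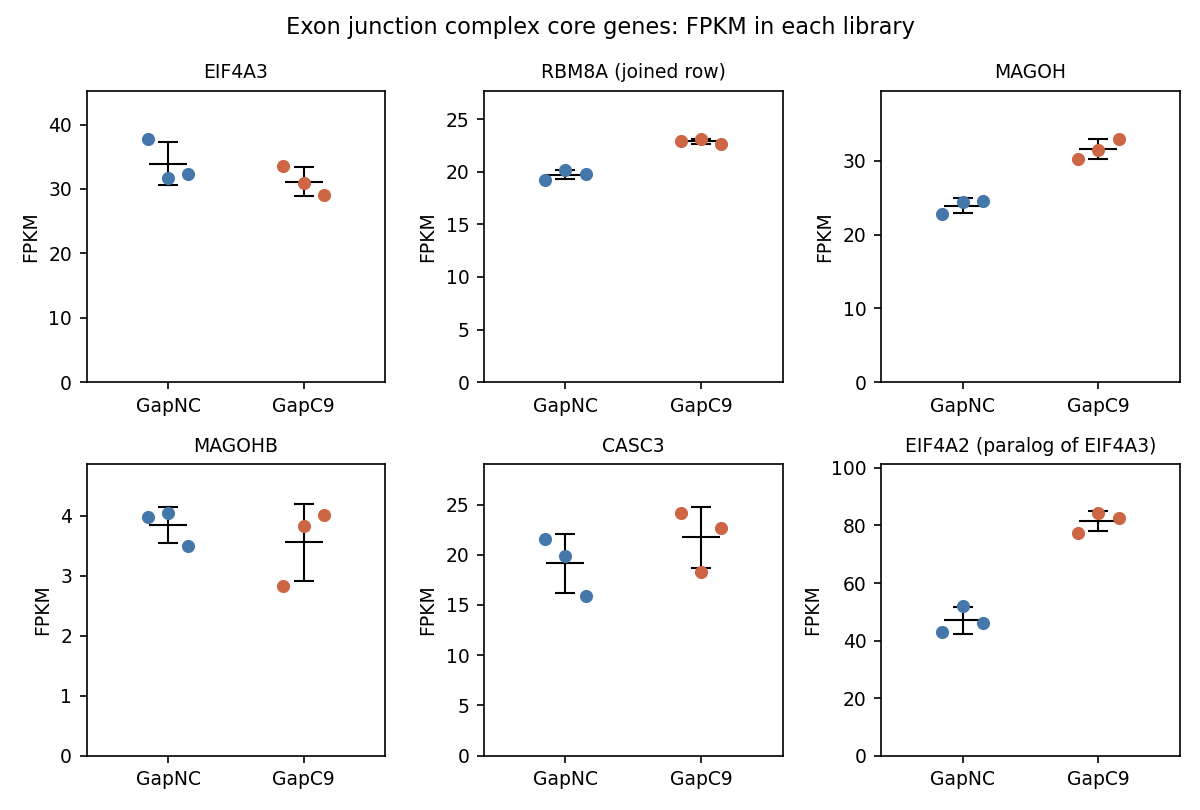
FPKM (vertical axes, from 0) of the 5 EJC core genes and EIF4A2 in each GapNC and GapC9 library (points), with the mean and SD of 3 libraries (bars). The groups do not overlap for RBM8A, MAGOH and EIF4A2, and overlap for EIF4A3, MAGOHB and CASC3.

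EIF4A3, the RNA clamp, had the highest mean of the 5 genes over all libraries, at the percentile 94.5 of mean FPKM among all rows tested. It was at 37.7, 31.7 and 32.3 FPKM under GapNC, against 33.5, 30.9 and 29.0 FPKM under GapC9. The groups overlapped, and the highest value was in GapNC library 1. The means were 33.9 ± 3.32 and 31.1 ± 2.28 FPKM (SD, n = 3 each). The log2 fold change of FPKM + 0.1 was −0.12 (SE 0.11, 95% interval −0.39 to 0.15, limma adjusted p = 0.533). That interval runs from 0.762-fold to 1.11-fold, so a change of 2-fold in either direction lies outside it. Only changes between these 2 bounds lie inside it. Without GapNC library 1 the log2 fold change was −0.042.

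MAGOH, the RBM8A partner, was at 22.8, 24.5 and 24.6 FPKM under GapNC and at 30.3, 31.5 and 33.0 FPKM under GapC9. All libraries labelled GapC9 were above all labelled GapNC, with means of 31.6 ± 1.35 against 23.9 ± 1.02 FPKM (SD, n = 3 each). The log2 fold change was 0.40 (SE 0.087, 95% interval 0.19 to 0.61), with an unadjusted limma p of 0.00373 and an adjusted p of 0.0512, which just missed the threshold. The call depended on the processing. The adjusted p was 0.0430 when only rows with a mean of at least 1 FPKM were tested, 0.0442 after median scaling and 0.0101 after a GC correction, and between 0.0647 and 0.176 with any 1 library left out. The count of all rows past the threshold differed too. It was 1120 of 16028 as reported, 1200 of 10229 with that filter, 898 of 16028 after median scaling and 2377 of 16028 after the GC correction. The log2 fold change of MAGOH stayed between 0.36 and 0.51 under all 17 alternatives, with the lowest value without GapNC library 1.

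MAGOHB, the paralog, was the least abundant of the 5, at the percentile 58.6 of mean FPKM. It was at 3.99, 4.06 and 3.50 FPKM under GapNC and at 2.82, 3.84 and 4.01 FPKM under GapC9. The groups overlapped, and only GapC9 library 1 lay below all libraries labelled GapNC. The log2 fold change was −0.12 (SE 0.17, 95% interval −0.53 to 0.28, limma adjusted p = 0.681). It was −0.097 without GapNC library 1, 0.031 without GapC9 library 1 and 0.0056 after quantile normalization, so its sign changed with these settings. MAGOHB was also among the poorest in GC of all rows (percentile 1.09), and after the GC correction its log2 fold change was −0.31 (adjusted p = 0.311). The part of GC content in these values was not tested.

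RBM8A, the other subunit of the heterodimer, was measured only in that joined row. That row was at 19.2, 20.2 and 19.8 FPKM under GapNC and at 22.9, 23.1 and 22.6 FPKM under GapC9. The groups did not overlap, and values within a group lay close together, with means of 19.7 ± 0.469 and 22.9 ± 0.256 FPKM (SD, n = 3 each). The log2 fold change was 0.21 (SE 0.081, 95% interval 0.016 to 0.41), with an unadjusted limma p of 0.0382 and an adjusted p of 0.168. It lay between 0.19 and 0.32 under all 17 alternatives, the lowest without GapNC library 1, and none brought the adjusted p under 0.05. How much of the value belongs to RBM8A cannot be told apart in this row.

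CASC3, the EIF4A3-binding subunit, varied most between libraries of 1 group among the 4 more abundant genes. It was at 21.6, 19.9 and 15.9 FPKM under GapNC and at 24.2, 18.3 and 22.7 FPKM under GapC9. The groups overlapped, with GapC9 library 2 below GapNC libraries 1 and 2. The log2 fold change was 0.18 (SE 0.17, 95% interval −0.22 to 0.59, limma adjusted p = 0.525), and it was 0.28 without GapNC library 1, 0.058 without GapNC library 3 and 0.30 without GapC9 library 2.

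For genes with a row of their own, the depth can be set beside this spread. With the same reading of the FPKM step and the length of the annotated main transcript, MAGOH rested on about 393 to 590 fragments a library. The counting error is then 4.12% to 5.04%, and the SD between libraries was 4.26% of the mean under GapNC and 4.27% under GapC9. MAGOHB rested on about 171 to 249 fragments, with a counting error of 6.33% to 7.64% and an SD of 7.80% and 18.1%. EIF4A3 rested on about 1190 to 1496 fragments and CASC3 on about 1587 to 2302. Their counting errors were at most 2.90% and 2.51%, and their SDs were 7.31% to 9.79% and 14.1% to 15.3%, well above counting error. These errors cover counting only.

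The order of levels differed between the labels at its top. Under GapNC, EIF4A3 was above MAGOH in every library, MAGOH above RBM8A, and RBM8A and CASC3 overlapped. Under GapC9, the EIF4A3 and MAGOH ranges overlapped, as did those of RBM8A and CASC3. MAGOHB was lowest in all libraries. The ratio of MAGOH to EIF4A3 within a library, chosen after the values were seen and so not tested, was 0.603, 0.772 and 0.760 under GapNC and 0.903, 1.02 and 1.14 under GapC9.

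Ratios within a library do not depend on a scaling factor for that library. MAGOHB to MAGOH was 0.175, 0.166 and 0.143 under GapNC and 0.0933, 0.122 and 0.122 under GapC9, lower in all 3 libraries (exact two-sided permutation p = 0.1). MAGOHB thus made up 12.5% to 14.9% of the summed MAGOH and MAGOHB level under GapNC and 8.53% to 10.9% under GapC9. The summed level was 27.8 ± 0.927 FPKM under GapNC and 35.1 ± 1.95 FPKM under GapC9 (SD), again without overlap (exact permutation p = 0.1). RBM8A to that sum was 0.719, 0.707 and 0.706 against 0.694, 0.653 and 0.611 (exact permutation p = 0.1). The joined RBM8A row was thus higher by less than the sum, which was mostly MAGOH.

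Against EIF4A3, the RBM8A row was at ratios of 0.510, 0.636 and 0.613 under GapNC and 0.684, 0.748 and 0.779 under GapC9, without overlap (exact permutation p = 0.1). CASC3 to EIF4A3 was 0.572, 0.628 and 0.492 against 0.721, 0.593 and 0.782, with overlap (exact permutation p = 0.2). Over these 7 quantities, including the 2 EIF4A ratios below, the adjusted p was 0.117 for each of the 6 without overlap and 0.2 for CASC3 to EIF4A3. With 3 libraries a group the exact test cannot go below 0.1. Without GapNC library 1, the mean log2 difference was 0.24 in place of 0.34 for RBM8A to EIF4A3, 0.32 in place of 0.31 for CASC3 to EIF4A3 and −0.46 in place of −0.53 for MAGOHB to MAGOH.

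**Figure D2:**
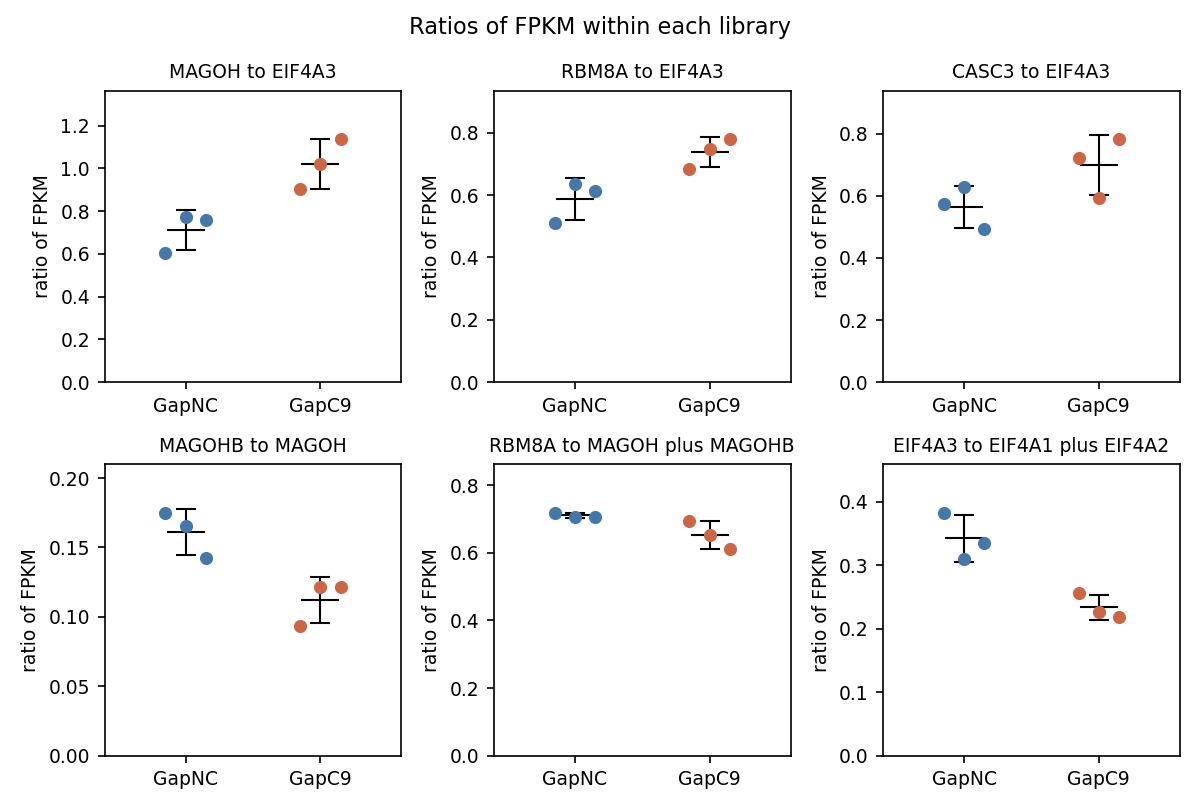
Ratios of FPKM within each library (vertical axes, from 0) for 6 pairs of genes or sums, in GapNC and GapC9 libraries (points), with the mean and SD of 3 libraries (bars). MAGOH and RBM8A relative to EIF4A3 are higher in all GapC9 libraries, and MAGOHB to MAGOH is lower in all of them.

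Of the EIF4A3 paralogs, only EIF4A2 passed the adjusted threshold. It was at 42.8, 52.1 and 46.1 FPKM under GapNC and at 77.5, 84.5 and 82.6 FPKM under GapC9. All libraries labelled GapC9 were above the others, and EIF4A2 rose by a log2 fold change of 0.80 (SE 0.10, limma adjusted p = 0.0193). With 1 library left out its adjusted p was 0.0309 without GapNC library 1 and 0.056 to 0.0971 without each of the other 5. The row with EIF4A1 joins 8 genes and was at 50.2 to 55.7 FPKM under GapNC and 49.8 to 53.3 FPKM under GapC9 (log2 fold change −0.0061, adjusted p = 0.976). EIF4A3 relative to the sum of EIF4A1 and EIF4A2 was 0.383, 0.310 and 0.335 under GapNC and 0.256, 0.226 and 0.219 under GapC9, without overlap (exact permutation p = 0.1). EIF4A3 to the EIF4A1 row was 0.650 ± 0.0239 against 0.601 ± 0.0248 (SD, n = 3 each, exact permutation p = 0.1).

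Pseudogene copies held little signal. RBM8B was listed at 0.668 FPKM in GapNC library 2 and at 0 elsewhere. MAGOH2P was listed at 0.0843 FPKM in GapC9 library 1 only, and MAGOH3P at 0.0896 and 0.135 FPKM in library 3 of GapNC and of GapC9. EIF4A3P1 had no row.

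The proteins that join the EJC were then counted over a list of 12 genes. Of these, 1 rose, 1 fell and 10 did not pass an adjusted p of 0.05, and the median log2 fold change was 0.21. Over all 16028 rows, 303 were higher and 817 lower at that threshold (6.99%), with a median of −0.076. After the GC correction, 6 of the 12 were higher and 1 was lower, against 1141 and 1236 of all 16028 rows. SAP18, a subunit of the ASAP complex that sits on the EJC, was at 29.3, 27.9 and 28.4 FPKM under GapNC and 38.0, 40.2 and 40.3 FPKM under GapC9 and rose by 0.47 on the log2 scale (adjusted p = 0.0315, limma). CWC27, a spliceosomal protein that binds EIF4A3 with CWC22, was at 6.35, 8.68 and 8.24 FPKM under GapNC and 3.64, 4.24 and 3.50 FPKM under GapC9 and fell by 1.01 on the log2 scale (adjusted p = 0.0289, limma). CWC22, which brings EIF4A3 to the spliceosome, was at 8.06 to 9.87 FPKM under GapNC and 11.5 to 13.9 FPKM under GapC9, without overlap (log2 fold change 0.45, adjusted p = 0.0966). With 1 library left out, SAP18 and CWC27 passed only when it was GapNC library 1.

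**Figure D3:**
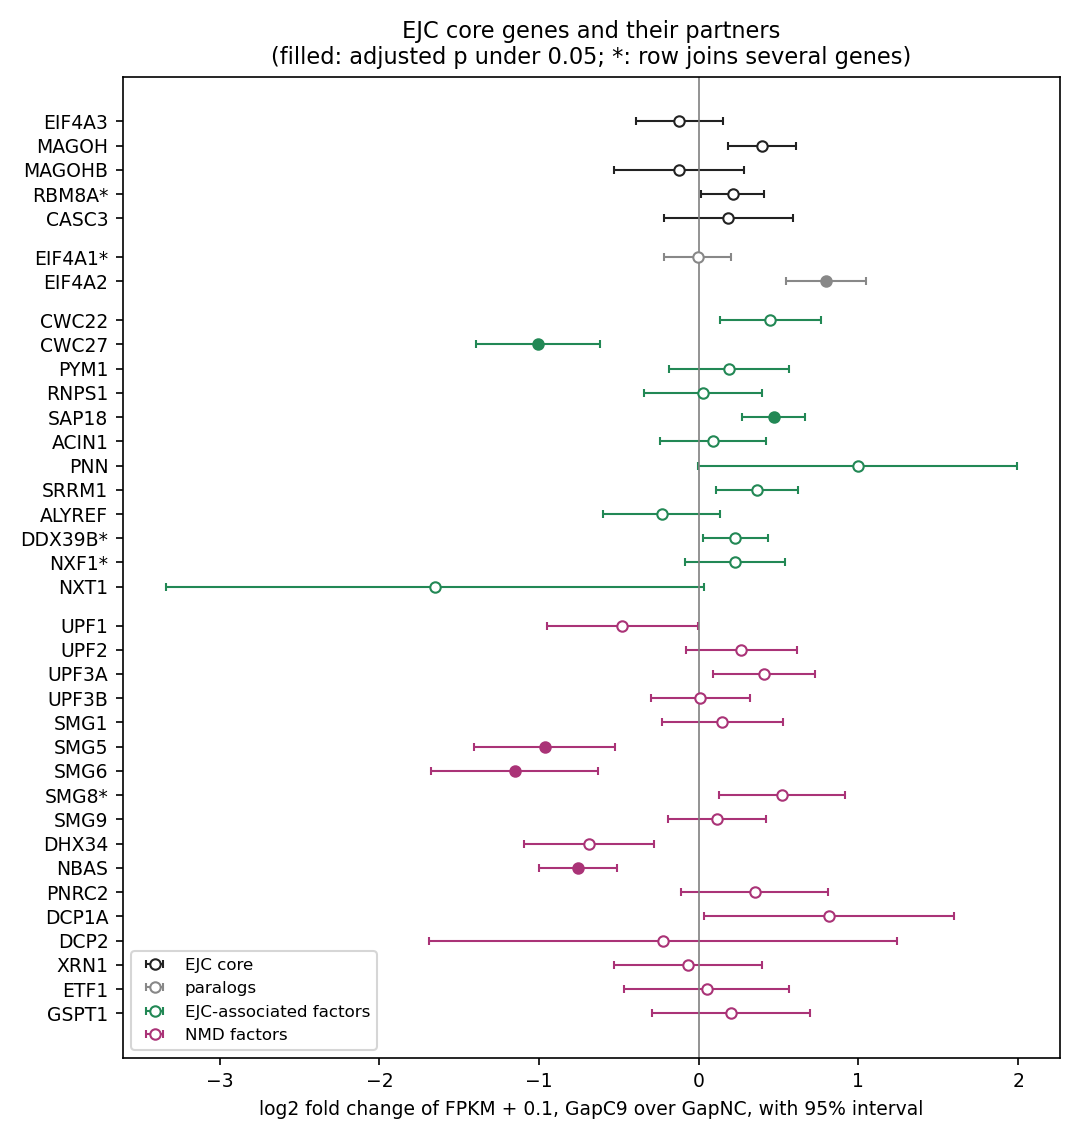
Log2 fold change of FPKM + 0.1, GapC9 over GapNC (horizontal axis), with its 95% interval, for the 5 core genes, the EIF4A paralogs, 12 EJC-associated factors and 17 of the 18 NMD factors. No core gene is filled (adjusted p under 0.05), while EIF4A2, SAP18, CWC27, SMG5, SMG6 and NBAS are.

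The NMD factors, proteins that act in or with NMD, were counted over 18 genes. None rose, 4 fell and 14 did not pass, and the median log2 fold change was 0.029, beside the same 6.99% and −0.076 over all rows. After the GC correction, 1 of the 18 was higher and 5 were lower at an adjusted p under 0.05. In that fit, 1141 of all 16028 rows were higher and 1236 lower, more than as reported. SMG5, an adaptor bound by phosphorylated UPF1, fell by 0.96 on the log2 scale (limma adjusted p = 0.0379). SMG6, the NMD endonuclease, fell by 1.15 (adjusted p = 0.0372), and NBAS, a membrane tethering protein also linked to NMD, fell by 0.76 (adjusted p = 0.0210). With any 1 library left out, SMG5 and SMG6 did not pass, and NBAS passed only without GapNC library 1. UPF1, the central NMD helicase, had 19.3 to 26.9 FPKM under GapNC and 12.8 to 18.6 FPKM under GapC9 (limma adjusted p = 0.189). The list was mixed in direction. By sign alone, 10 of the 18 were higher and 8 lower, against 6993 and 9035 of all 16028 rows. The groups did not overlap for 3 higher and 6 lower genes, against 2022 and 3464 of all rows.

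Of 13 transcripts known as NMD-sensitive in other systems, 1 rose, none fell and 12 did not pass, with a median log2 fold change of 0.12. That count is near the share of 6.99% over all rows. The one that rose was ATF3, a stress transcription factor that also responds to other signals, from 5.60 to 6.64 FPKM under GapNC to 11.7 to 13.0 FPKM under GapC9 (log2 fold change 1.02, limma adjusted p = 0.0159). It too passed only without GapNC library 1 when 1 library was left out. CPSF3, a 3′ end processing endonuclease, was at 16.3, 20.6 and 18.9 FPKM under GapNC and 14.8, 14.4 and 16.2 FPKM under GapC9, without overlap (log2 fold change −0.29, adjusted p = 0.197).

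The genes most like each core gene across the 6 libraries were ranked by the root mean square (RMS) difference of centred log2(FPKM + 0.1) among 10032 rows. For EIF4A3 these were RFC2, TMEM173 and TAGLN2 (RMS 0.0215 to 0.0237), and for MAGOH they were IFT46, AFTPH and R3HCC1L (0.0256 to 0.0324). The RBM8A row was nearest to VCL, the joined row of SNX5 and OVOL2, and RPSA (0.00873 to 0.0187). MAGOHB had RNF43 with SUPT4H1, NEDD4L and ZNF263 (0.0476 to 0.0680), and CASC3 had SLC31A1, ZNF341 and SLC27A2 (0.0510 to 0.0627). No core gene was among the 3 nearest rows of another.

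**Figure D4:**
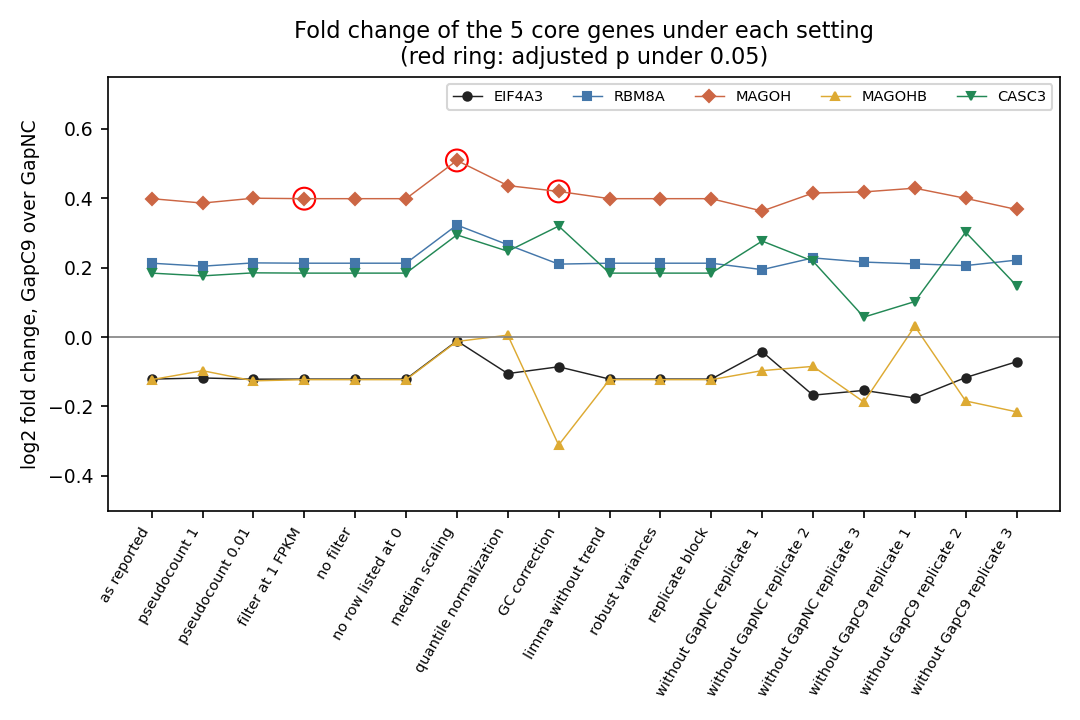
Log2 fold change of the 5 core genes, GapC9 over GapNC (vertical axis), as reported and under 17 alternative settings (horizontal axis), with a red ring where the adjusted p is under 0.05. MAGOH is ringed under 3 settings and no other gene under any, and MAGOHB crosses 0.

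All FPKM values are relative to the rest of the library. Median scaling shifted every log2 fold change by 0.11, and with it EIF4A3 was at −0.011 and MAGOHB at −0.013. Relative to the median of all rows, the log2 fold changes as first given were −0.045 for EIF4A3, −0.047 for MAGOHB, 0.26 for CASC3, 0.29 for the RBM8A row and 0.48 for MAGOH. In bulk libraries such as these, fewer cells of a type and less RNA per cell cannot be told apart.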

How the data were processed

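Poly(A) RNA of HCT-116 cells was sequenced in 3 GapNC and 3 GapC9 libraries, grouped by the transfection label. The authors mapped reads with HISAT and deposited FPKM values from StringTie, in 1 table with annotation columns. Per the labels, the processing notes name HISAT2 2.0, StringTie 1.3.0 and Bowtie 0.12.2, and the mouse build mm8, so no coordinate was taken from the table. Assembled loci can join neighboring genes (1063 of 27918 rows). In R 4.3.3, limma 3.58.1 (lmFit, eBayes with trend) was fitted to log2(FPKM + 0.1) of the 16028 rows with a mean of at least 0.1 FPKM, all 6 libraries in 1 fit, with Benjamini-Hochberg adjustment over all rows. The study's own calls used edgeR, which needs counts and was not run on these FPKM values. Sums and ratios were tested by exact two-sided permutation. Sequences and positions came from GENCODE v29, matched by transcript. GC content was matched for 15909 (99.3%) of the rows tested. The fit was tested on simulated data.

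The text names all 5 members, the eIF4A paralogs, the pseudogene copies, CPSF3, CASC9, each gene of the 3 pathway lists past an adjusted p of 0.05, and the 3 rows most like each member. A gene of the NMD list that passed is not reported here by name. CWC22 and UPF1 were named after their values were seen. Members and lists were chosen with earlier results of these data known. Alternatives were other pseudocounts (1 and 0.01), filters, scalings, a GC correction (lowess, span 0.3), other variance models, a replicate block and each library left out.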

Additional observations from a re-analysis of the deposited data

How the results depend on the processing

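No core gene passed the study's thresholds under any of the 17 alternatives. The count of core genes past an adjusted p of 0.05 was 0 as reported and 1, MAGOH, with a filter at 1 FPKM, after median scaling and after the GC correction (0 in each fit with 1 library left out). MAGOHB turned direction after quantile normalization (log2 fold change 0.0056) and without GapC9 library 1 (0.031), and spanned −0.22 to 0.031 with 1 library left out. The 12 EJC-associated factors had 2 calls as reported and 7 after the GC correction (6 higher and 1 lower). They had 1 without the variance trend and 0 to 2 with 1 library left out. The 18 NMD factors had 4 calls as reported, 6 after the GC correction (1 higher and 5 lower), 2 with no filter and 0 to 2 with 1 library left out. The 13 NMD-sensitive transcripts had 1 call as reported, 3 after the GC correction and 0 to 1 with 1 library left out. Over all rows, 303 were higher and 817 lower at an adjusted p under 0.05, against 398 and 500 after median scaling, 347 and 516 after quantile normalization, 1141 and 1236 after the GC correction, 146 and 346 with no filter, and 241 and 573 without GapNC library 1. Leaving out each other library left 34 to 105 calls. With the filter at 1 FPKM, 310 were higher and 890 lower of 10229 rows, a larger share than as reported. Without the variance trend, 238 were higher and 660 lower of 16028 rows. The sum of MAGOH and MAGOHB and the 6 planned ratios kept their direction with 1 library left out and with medians in place of means.

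With the replicate number as a block, 0 core genes, 0 EJC-associated factors, 0 NMD factors, 0 NMD-sensitive transcripts and 0 of all rows passed an adjusted p of 0.05 in limma, while 1618 rows were higher and 2952 lower at an unadjusted p under 0.05. The adjusted p of MAGOH was 0.0691. The deviations of libraries with the same number correlated at 0.097, 0.040 and 0.024, all under 0.1, so the numbers were not taken to pair the samples. GapNC libraries 1 and 2 correlated most with their own number, while GapNC library 3 correlated more with GapC9 library 2 (0.058) than with its own number. Among the core genes with a row of their own, MAGOHB had the largest counting error, at most 7.64%. Its SD under GapC9 was larger still, at 18.1% of the mean. The counting errors rest on the FPKM steps alone.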

Other observations

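NXT1, the small partner of the mRNA export receptor NXF1 and 1 of the 12 EJC-associated factors, was singled out after its values were seen. It was at 15.1, 15.9 and 14.9 FPKM under GapNC and at 15.5, 2.84 and 2.45 FPKM under GapC9, so that GapC9 library 1 had the level of the control libraries. Its log2 fold change was −1.65 (limma adjusted p = 0.198). Without GapC9 library 1 it was −2.49 (limma adjusted p = 0.00635). That library stood out by its NXT1 value before it was left out, so this p-value cannot test a difference between the labels. With any other library left out, the limma adjusted p of NXT1 was between 0.298 and 0.409. PNN, an EJC-bound splicing factor also singled out after its values were seen, was at 16.7, 51.3 and 40.6 FPKM under GapNC and at 64.9, 66.0 and 64.5 FPKM under GapC9 (log2 fold change 0.995, adjusted p = 0.193), with the lowest value in GapNC library 1.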
